A study of Mus musculus with 6 samples.

Results

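The genes described here encode the eukaryotic translation initiation factors and their direct regulators. They were taken as the genes whose symbol starts with Eif followed by a digit, a rule that uses the name and no measured value, and 55 of the 22040 genes listed met it. The tissue was renal cortex of wild-type mice of the inbred strain C57BL/6. RNA was sequenced in 3 libraries of sham animals and in 3 libraries labelled IR24h, taken when blood had flowed again for 24 h after the pedicles of the kidneys, their vessel stalks, had been clamped bilaterally for 30 min. The labels give no animal for a library, so p-values measure the spread between these libraries, which may be technical. Expression was read from counts of reads per gene, given below as CPM, counts relative to a common library size, after libraries had been scaled with edgeR's TMM factors.

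Initiation loads a ribosome onto an mRNA and places it at the start codon. The factor eIF2 brings the initiator methionyl tRNA to the small ribosomal subunit, eIF3 holds that subunit together with eIF1, eIF1A and eIF5, and the eIF4F complex (the cap-binding protein eIF4E, the scaffold eIF4G and the RNA helicase eIF4A) recruits the mRNA by its cap. eIF5B then joins the large subunit. The step is known to be controlled in stressed tissue at eIF2 and at eIF4E: kinases phosphorylate eIF2 alpha and so slow the reloading of eIF2 by eIF2B, and the 4E-binding proteins hold eIF4E away from eIF4G unless the kinase mTOR phosphorylates them.

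The 6 libraries held between 12877853 and 17061844 counts. Reads of the 13 mitochondrial genes took 13.1 to 14.2% of the counts in the sham libraries and 68.9, 26.2 and 49.2% in IR24h libraries 1 to 3. Of the remaining counts the initiation factors took 0.680, 0.676 and 0.672% in the sham libraries and 0.689, 0.879 and 0.810% in the IR24h libraries. All IR24h libraries lay above all sham libraries in that share, IR24h library 1 by little. After TMM scaling the groups overlapped. The summed CPM of the initiation factors was then 4836, 4755 and 4972 in the sham libraries and 3922, 5304 and 4783 in the IR24h libraries. The summed CPM of 8 proximal tubule markers ran from 14265 to 15092 in sham and from 2541 to 4213 in IR24h, with 5 of the 8 called lower. Markers of other cells changed as well: 3 of 3 neutrophil markers were called higher (summed CPM of 0.701 to 1.31 in sham and 5.16 to 15.6 in IR24h), as were 4 of 6 macrophage marker identifiers (44.8 to 50.2 in sham and 47.1 to 112 in IR24h). The 4 fat markers (13.3 to 23.5 in sham and 73.6 to 113 in IR24h) had 1 called higher, and the 2 of the distal convoluted tubule (1204 to 1462 in sham and 132 to 743 in IR24h) had 1 called lower. Of the endothelial, intercalated cell and principal cell markers 1 each was called lower. The summed CPM of intercalated cell markers was 180 to 190 in sham and 71.1 to 90.5 in IR24h. The sums overlapped for endothelium (126 to 145 in sham and 37.2 to 156 in IR24h) and principal cells (263 to 311 in sham and 99.6 to 443 in IR24h). No podocyte or thick ascending limb marker was called. The summed CPM of podocyte markers was 250 to 317 in sham and 70.7 to 217 in IR24h. For the thick ascending limb it was 1656 to 2384 in sham and 1440 to 4671 in IR24h. No defining marker of the 8 cell types with a called marker was at 0 in all libraries. The part of this change in cell makeup in the values below was not tested, and in bulk RNA fewer cells of a type and less RNA per cell cannot be told apart.

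Most initiation factors were not called different. Of the 55, 54 passed edgeR's expression filter, and Eif4e1b, which encodes a germline relative of eIF4E, had 0 counts in all 6 libraries. By edgeR's quasi-likelihood test with Benjamini-Hochberg adjustment over the 13609 genes tested, 5 initiation factors were higher in IR24h at an adjusted p under 0.05 (Eif4ebp1, Eif5b, Eif3j1, Eif3j2 and Eif4a1), which was 9.26% of those tested against 8.65% of all genes. Another 2 were lower (Eif4h and Eif4ebp2), 3.7% against 7.62% of all genes. The remaining 47 did not pass. At an unadjusted p under 0.05 the counts were 8 higher (14.8%, with 18.7% of all genes) and 7 lower (13%, with 15.5%). DESeq2 called 8 higher and 6 lower (14.8% and 11.1%, with 15.2% and 12.5% of all genes), and limma-voom called 6 and 2 (11.1% and 3.7%, with 7.39% and 8.8%). In 14 initiation factors every IR24h library lay above every sham library (25.9%, with 19.9% of all genes), and in 10 every IR24h library lay below (18.5%, with 21.7% of all genes). Median log2 fold changes of IR24h over sham were 0.15 for the initiation factors and 0.05 for all genes, and the middle range between quartiles was -0.30 to 0.55 for the initiation factors and -0.57 to 0.70 for all genes. With shares this near to those of all genes, no change of the initiation factors as a group is read from them.

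**Figure D1:**
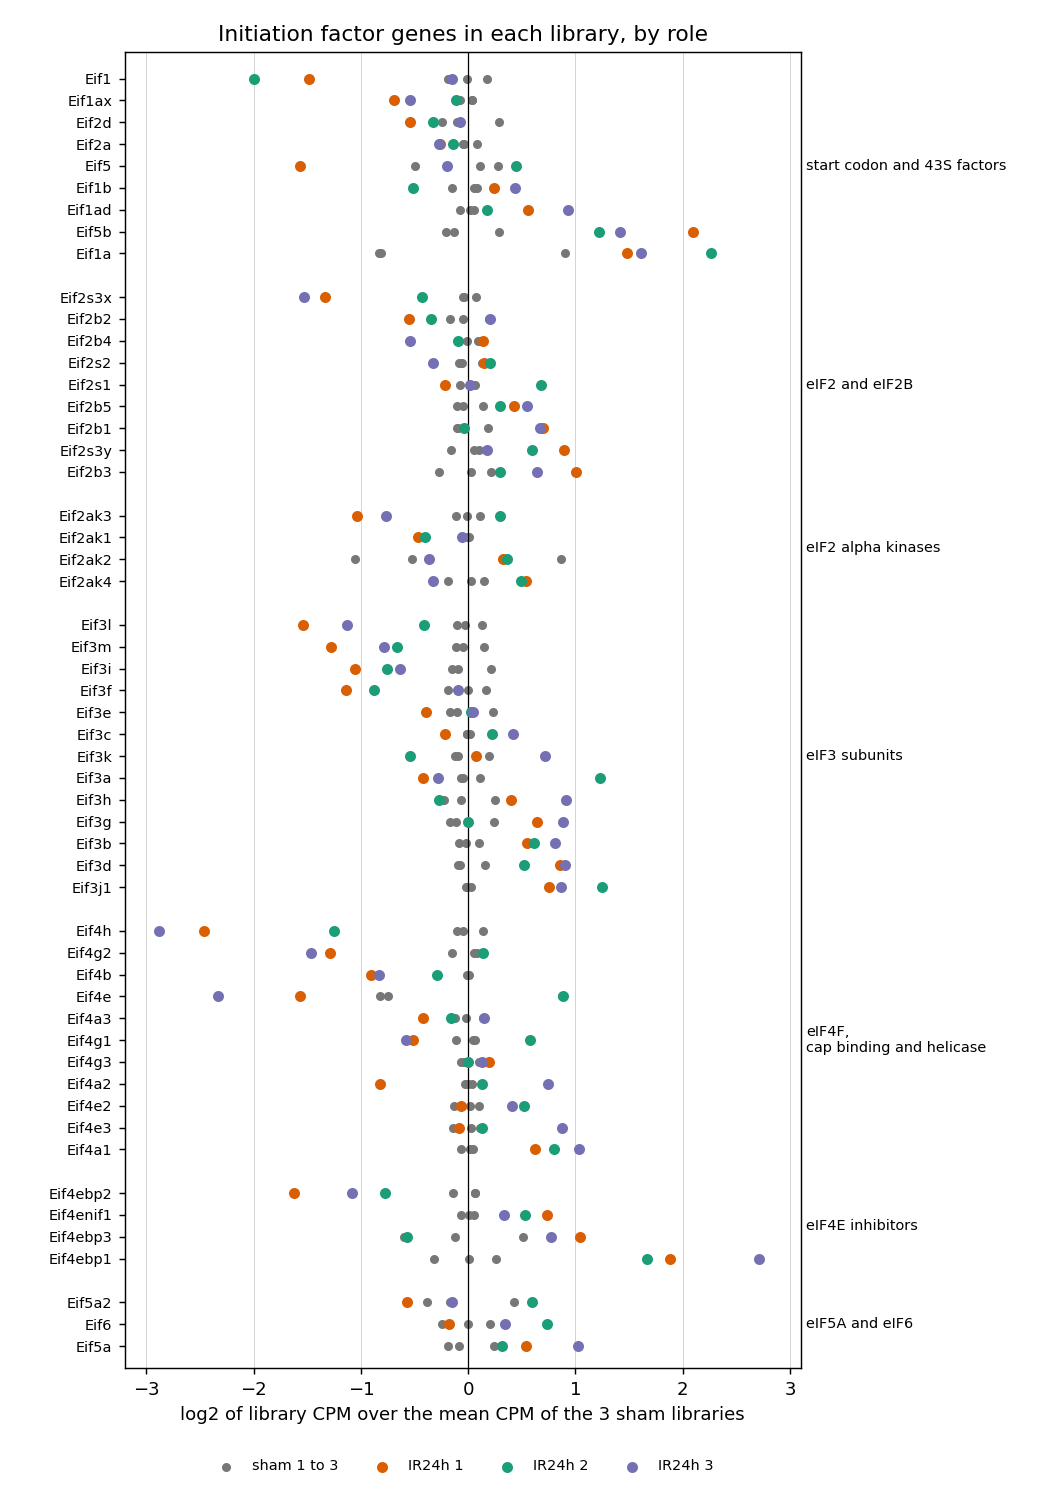
The 53 initiation factors with sham counts, 1 line per gene and 1 point per library, as the log2 ratio of the CPM to the mean CPM of the 3 sham libraries (x axis), grouped by role. Sham points (grey), which are part of that mean, sit mostly near 0. The IR24h libraries (colours) differ among themselves, with 12 genes more than 2-fold below the sham mean in IR24h library 1 and 2 in IR24h library 2.

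The injured libraries were not alike in these genes. Against the sham mean, and over the 53 initiation factors with sham counts, IR24h libraries 1, 2 and 3 each had 5 genes more than 2-fold above. They had 12, 2 and 6 genes more than 2-fold below. In the sham libraries no gene was more than 2-fold above the sham mean and 1 was more than 2-fold below. Each sham library is part of that mean, which narrows its ratios, so these sham counts understate the spread between sham libraries. The standard deviation of the log2 ratios was 0.956, 0.720 and 0.956 in the IR24h libraries and 0.198 to 0.281 in the sham libraries. In the IR24h libraries it includes the difference between the groups, so it does not measure how far they differ among themselves. IR24h library 2, the injured library with the lowest mitochondrial share, had the fewest low initiation factors, and it also stood apart in cell markers. Its summed CPM was 37.2 for endothelium (150.0 and 155.7 in IR24h libraries 1 and 3), 5.16 for neutrophils (13.9 and 15.6) and 743 for the distal convoluted tubule (133 and 132). For the thick ascending limb it was 1440 (3032 and 4671). The part of these in its initiation factor values was not tested.

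Without IR24h library 2, 14 initiation factors were called higher and 12 lower by edgeR's quasi-likelihood test with Benjamini-Hochberg adjustment (25.9% and 22.2% of 54, against 23.9% and 24.5% of all genes). Among the lower genes were Eif4h, Eif4e, Eif4g2, Eif4b and Eif4g1 of eIF4F and its cofactors, with log2 fold changes of -2.66, -1.92, -1.38, -0.87 and -0.55, and the inhibitor Eif4ebp2 (-1.33). The others were Eif2s3x (-1.44), Eif3l (-1.32), Eif3m (-1.01), Eif2ak3 (-0.90), Eif3i (-0.83) and Eif1ax (-0.62). The higher genes outside the 5 already called were Eif1ad, Eif2b1, Eif2b3, Eif2b5, Eif3b, Eif3d, Eif3g, Eif3h and Eif5a, with log2 fold changes of 0.48 to 0.87. All 7 genes called over the 6 libraries were among these 26.

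Of the inhibitors of eIF4E, 1 rose and 1 fell. Eif4ebp1 encodes 4E-BP1, a repressor that mTOR releases from eIF4E, and lies on chr8:27260329-27276674 (GRCm38). It stood at 11.8, 7.88 and 9.92 CPM in sham libraries 1 to 3 and at 36.4, 31.3 and 64.5 CPM in IR24h libraries 1 to 3. Every IR24h library was higher than every sham library, and IR24h library 3 was the highest. The mean went from 9.86 ± 1.94 to 44 ± 17.9 CPM (SD, n = 3 per group), a log2 fold change of 2.16 ± 0.36 (SE, edgeR quasi-likelihood, adjusted p = 0.00984). Eif4ebp2 encodes 4E-BP2, its close relative with the same function, and lies on chr10:61428491-61452661. It stood at 257, 258 and 223 CPM in sham and at 79.8, 144 and 116 CPM in IR24h, with no overlap of the groups. Its mean fell from 246 ± 19.9 to 113 ± 32.3 CPM (SD, n = 3 per group), a log2 fold change of -1.12 ± 0.29 (edgeR, adjusted p = 0.0389).

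Because both genes were read in the same libraries, their ratio does not depend on how the libraries were scaled. The counts of Eif4ebp1 over Eif4ebp2 gave 0.0457, 0.0306 and 0.0445 in sham and 0.456, 0.217 and 0.557 in IR24h, a difference of 3.26 ± 0.45 on the log2 scale (SE). On a scale per gene length, FPKM, Eif4ebp2 stood at 38.8 ± 4.47 and Eif4ebp1 at 4.17 ± 0.859 in sham (SD, n = 3), so on that scale the transcript that fell was the more abundant of the pair in sham kidneys. The other inhibitors did not pass the test. Eif4ebp3, the third 4E-binding protein, stood at 2.91, 4.04 and 6.26 CPM in sham and 9.09, 2.96 and 7.52 CPM in IR24h, overlapping groups (edgeR, adjusted p = 0.471). Of its exon bases, 67.3% are shared with another gene on the same strand. Eif4enif1, whose product carries eIF4E into the nucleus and into P-bodies, stood at 24.1, 23.4 and 22.2 CPM in sham and 38.6, 33.4 and 29.3 CPM in IR24h, groups that did not overlap (log2 fold change 0.54, edgeR, adjusted p = 0.148).

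**Figure D2:**
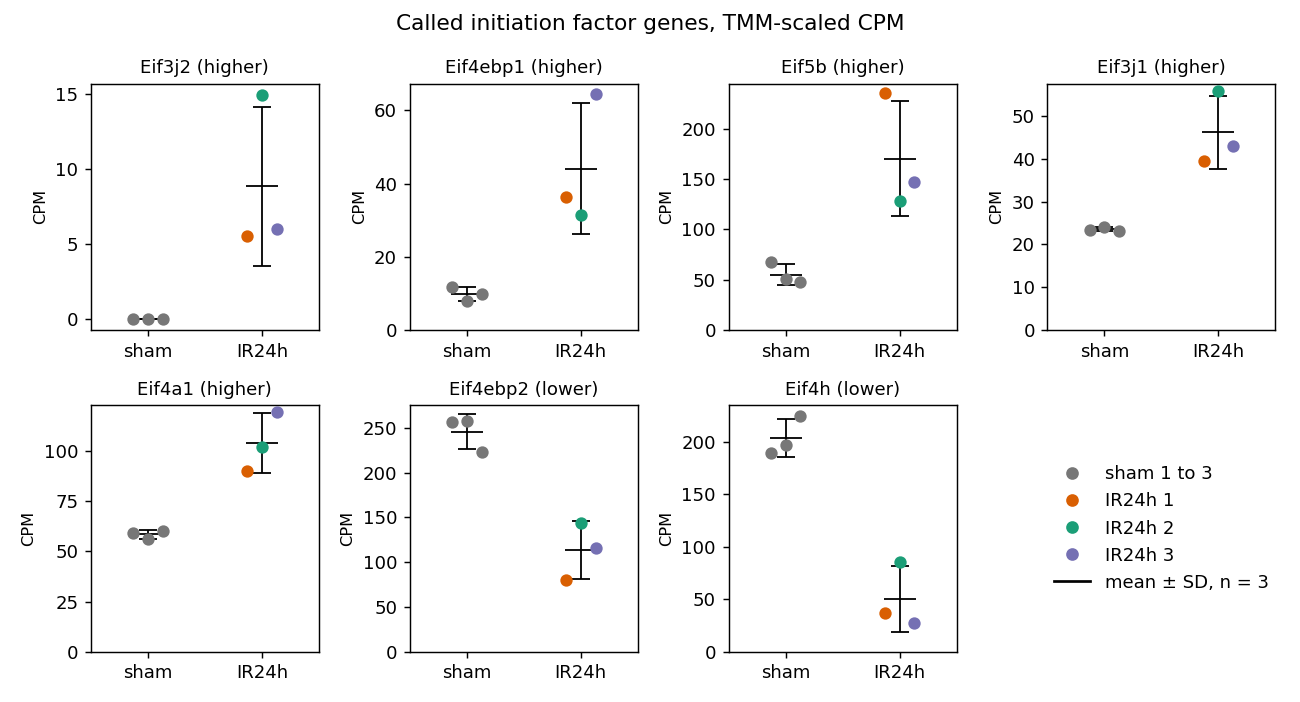
CPM of the 7 called initiation factors in each library, with points for single libraries and black bars for the group mean and SD (n = 3). Each panel has its own linear axis. In each panel the 3 IR24h points lie wholly above or wholly below the 3 sham points.

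Leaving out sham library 2 or 3 ended the call of Eif4ebp1 (edgeR, adjusted p = 0.0629 and 0.0588, log2 fold changes 2.01 and 2.19). The call of Eif4ebp2 held without IR24h library 2 (edgeR, log2 fold change -1.33, adjusted p = 0.0036) and ended without any other library, with adjusted p between 0.0659 and 0.156 and log2 fold changes between -1.16 and -0.92.

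The helicase gene Eif4a1 and its cofactor Eif4h changed in opposite directions. Eif4a1 encodes the main RNA helicase of eIF4F, on chr11:69666936-69672423, minus strand. It stood at 59.2, 56.1 and 60.4 CPM in sham and at 90.1, 102 and 120 CPM in IR24h. The sham libraries lay close together and the IR24h libraries all lay above them. The mean rose from 58.6 ± 2.22 to 104 ± 14.9 CPM (SD, n = 3 per group), a log2 fold change of 0.83 ± 0.23 (edgeR, adjusted p = 0.0490). Of the stretches of 50 bases in its exons, 28.4% also occur in other annotated genes, most often in the pseudogene Eif4a-ps4, so part of its count is uncertain. Eif4h encodes a small RNA-binding cofactor that stimulates eIF4A, on chr5:134619721-134639490. It stood at 190, 197 and 225 CPM in sham and at 37.1, 85.8 and 27.7 CPM in IR24h, with IR24h library 2 nearest to the sham libraries and no overlap. Its mean fell from 204 ± 18.4 to 50.2 ± 31.2 CPM (SD, n = 3 per group), a log2 fold change of -2.02 ± 0.44 (edgeR, adjusted p = 0.0232).

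Eif4b encodes the other eIF4A cofactor, a relative of Eif4h in its RNA-binding domain. It stood at 315.5, 320.3 and 317.6 CPM in sham and at 169.6, 260.3 and 178.4 CPM in IR24h. All IR24h libraries were lower, but the fit gave a log2 fold change of -0.65 ± 0.27 that did not pass (edgeR, adjusted p = 0.134). Eif4a2, a close paralog of Eif4a1, stood at 129, 124 and 126 CPM in sham and 71.6, 138 and 211 CPM in IR24h, on either side of the sham values (edgeR, adjusted p = 0.806). The counts of Eif4a1 over Eif4a2 gave 0.458, 0.454 and 0.479 in sham and 1.26, 0.740 and 0.566 in IR24h, a log2 difference of 0.80 ± 0.34 (SE). Eif4a3, the helicase of the exon junction complex, stood at 39.5, 42.5 and 47.3 CPM in sham and 32.1, 38.5 and 47.6 CPM in IR24h (edgeR, adjusted p = 0.748).

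Without IR24h library 1 or 2 Eif4a1 stayed called, and without IR24h library 3 or any sham library its adjusted p lay between 0.0916 and 0.217 (edgeR, log2 fold changes 0.71 to 0.87). Eif4h stayed called without IR24h library 2 (edgeR, log2 fold change -2.66, adjusted p = 0.000359), and its adjusted p lay between 0.0513 and 0.0982 without any 1 of the other libraries (log2 fold changes -2.08 to -1.73).

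Promoter sequences of this pair are shown because both genes were called, in opposite directions, and both hold the E-box CACGTG, the core that MYC and related factors are known to bind. The sequences are the 250 bases before the annotated start, from RefSeq on GRCm38.p6, 5′ to 3′ on the gene's strand, with the E-box in capitals. Eif4a1 is read from chr11:69672424-69672673, minus strand, and Eif4h from chr5:134639410-134639659, minus strand.
Eif4a1: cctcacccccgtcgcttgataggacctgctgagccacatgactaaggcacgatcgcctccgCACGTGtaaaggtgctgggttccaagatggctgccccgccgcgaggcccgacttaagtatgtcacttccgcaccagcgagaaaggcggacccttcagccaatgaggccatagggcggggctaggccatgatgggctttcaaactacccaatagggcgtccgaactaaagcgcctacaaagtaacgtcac
Eif4h: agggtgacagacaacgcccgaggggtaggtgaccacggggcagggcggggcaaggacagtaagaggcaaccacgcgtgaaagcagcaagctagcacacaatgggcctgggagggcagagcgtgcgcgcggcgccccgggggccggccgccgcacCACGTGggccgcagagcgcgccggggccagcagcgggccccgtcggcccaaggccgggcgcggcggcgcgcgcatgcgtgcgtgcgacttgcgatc
The E-box starts 189 bases before the RefSeq start of Eif4a1 and 96 bases before that of Eif4h. For Eif4h the GENCODE coordinates given above put the start at 134639490, inside this window. The E-box lies nearer to that start, and part of the sequence shown lies within the gene as GENCODE gives it. It reads the same on both strands. Of 43 initiation factors matched by symbol to a RefSeq promoter, 9 (20.9%) held it: Eif1b, Eif3f, Eif3k, Eif4a1, Eif4e, Eif4g1, Eif4h, Eif5a and Eif5a2. Among all 27025 genes with such a window, 1854 (6.86%) did. Among the called initiation factors 5 were matched and 2 held it, 1 that rose and 1 that fell. Any part of the E-box or of the factors that bind it in these changes was not tested.

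None of the cap-binding and scaffold genes was called by edgeR over the 6 libraries, and Eif4e, Eif4g1 and Eif4g2 spread widely between libraries. Eif4e, which encodes the cap-binding protein itself, stood at 16.2, 17.0 and 52.6 CPM in sham and at 9.66, 52.9 and 5.68 CPM in IR24h. Sham library 3 and IR24h library 2 were high and the other 4 low, so the groups overlapped (log2 fold change -0.32 ± 0.85, edgeR, adjusted p = 0.817). Without IR24h library 2 the fit gave -1.92 (edgeR, adjusted p = 0.0400), and without sham library 3 it gave 0.50 (edgeR, adjusted p = 0.77). Its relative Eif4e2, a cap-binding protein that does not join eIF4F, stood at 42.8, 36.5 and 40.6 CPM in sham and 38.2, 57.3 and 53.1 CPM in IR24h (edgeR, adjusted p = 0.420). Eif4e3, a further cap-binding relative, stood between 6.15 and 7.31 CPM in sham and between 6.39 and 12.4 CPM in IR24h (edgeR, adjusted p = 0.477).

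Eif4g1, the main scaffold of eIF4F, stood at 340, 335 and 300 CPM in sham and at 227, 485 and 217 CPM in IR24h. IR24h library 2 lay above all sham libraries and the other injured libraries lay below them. Over all 3 injured libraries the log2 fold change was -0.07 (edgeR, adjusted p = 0.910). Without IR24h library 2 it was -0.55 (edgeR, adjusted p = 0.032), and with that library as the sole injured one, a value with no replicate of injury, it was 0.59. Eif4g2, a scaffold relative that lacks the eIF4E site, stood at 636, 626 and 543 CPM in sham and at 246, 663 and 218 CPM in IR24h, again with IR24h library 2 apart (edgeR, log2 fold change -0.68, adjusted p = 0.328). Without IR24h library 2 it was called, at -1.38 (edgeR, adjusted p = 0.00182). Eif4g3, the second eIF4G scaffold, was level at 146, 160 and 143 CPM in sham and 171, 149 and 164 CPM in IR24h (log2 fold change 0.11 ± 0.22, edgeR, adjusted p = 0.763).

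Among the factors that select the start codon and join the subunits, Eif5b rose. It encodes the GTPase that joins the large ribosomal subunit, on chr1:37998010-38055579. It stood at 67.3, 50.1 and 47.6 CPM in sham and at 235, 128 and 147 CPM in IR24h, and the lowest IR24h library was well above the highest sham library. The mean rose from 55 ± 10.7 to 170 ± 57.2 CPM (SD, n = 3 per group), a log2 fold change of 1.63 ± 0.32 (edgeR, adjusted p = 0.0167). The sources used here do not state whether counting used strand, and 16.8% of the exon bases of Eif5b lie opposite Rev1, which had a log2 fold change of 0.32 (edgeR, adjusted p = 0.493). Without any 1 of the sham libraries Eif5b was not called (edgeR, adjusted p between 0.0663 and 0.0968, log2 fold changes 1.55 to 1.78).

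The genes of eIF1 and eIF1A, which open the small subunit for scanning, did not pass edgeR's test. The paralogs Eif1a and Eif1ax gave opposite signs. In the other pair Eif1 was negative and Eif1b had no clear sign (log2 fold change 0.10 ± 0.30, from -0.51 to 0.33 over its alternatives). In this role, with 9 genes tested, edgeR called 1 higher and 0 lower (2 and 0 at an unadjusted p under 0.05), and DESeq2 and limma-voom each called 2 higher, Eif5b and Eif1a. Among all genes edgeR called 8.65% higher and 7.62% lower (18.7% and 15.5% at an unadjusted p under 0.05). DESeq2 called 15.2% of all genes higher and limma-voom 7.39%. Eif1a stood at 10.4, 10.3 and 34.1 CPM in sham and at 51.0, 87.7 and 55.8 CPM in IR24h, a log2 fold change of 1.83 ± 0.53 (edgeR, adjusted p = 0.0553). All IR24h libraries were higher, but sham library 3 stood 3.30-fold over the mean of the other sham libraries. Without that library the fit called Eif1a at 2.68 (edgeR, adjusted p = 0.0265), and over its 14 alternatives the adjusted p ran from 0.00644 to 0.191, with 6 calls. Eif1ax, its paralog on the X chromosome, stood at 60.4, 60.5 and 56.2 CPM in sham and 36.5, 54.6 and 40.6 CPM in IR24h, all lower (edgeR, log2 fold change -0.43, adjusted p = 0.264). The counts of Eif1a over Eif1ax gave 0.172, 0.170 and 0.608 in sham and 1.40, 1.61 and 1.38 in IR24h, a log2 difference of 2.48 ± 0.61 (SE). For Eif1a the gene length implied by the deposited counts and FPKM values was 10676 bases in sham and 4569 bases in IR24h, so the groups were not counted on the same gene model, and the FPKM ratio gave a log2 difference of 3.70.

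Eif1, the factor that guards against wrong start codons, stood at 149, 132 and 170 CPM in sham and at 53.8, 37.7 and 135 CPM in IR24h. IR24h library 3 reached the sham range and the other injured libraries were low (log2 fold change -0.99 ± 0.47, edgeR, adjusted p = 0.183). Without IR24h library 3 the gene was called at -1.72 (edgeR, adjusted p = 0.0238). Eif1b, its paralog, stood at 25.9, 30.0 and 30.5 CPM in sham and 33.9, 20.1 and 39.0 CPM in IR24h (edgeR, adjusted p = 0.832). The counts of Eif1 over Eif1b gave 5.76, 4.40 and 5.58 in sham and 1.59, 1.87 and 3.48 in IR24h, lower in every injured library (log2 difference -1.26 ± 0.37, SE). Eif5, which makes eIF2 hydrolyse its GTP at the start codon, stood at 175, 157 and 103 CPM in sham and 48.9, 197 and 126 CPM in IR24h, widely overlapping (edgeR, adjusted p = 0.780). The remaining members of this role, Eif1ad, Eif2a and Eif2d, had log2 fold changes of 0.59, -0.22 and -0.30, and none passed.

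The eIF3 complex, whose subunits form the platform on the small subunit, had 14 members tested, with 2 higher, 0 lower and a median log2 fold change of 0.28. At an unadjusted p under 0.05 edgeR gave 4 higher and 3 lower, as did DESeq2 at its adjusted p, and limma-voom gave 2 and 0. Among all genes the shares, higher and lower, were 8.65% and 7.62% at the adjusted p of edgeR and 18.7% and 15.5% at its unadjusted p. They were 15.2% and 12.5% by DESeq2 and 7.39% and 8.8% by limma-voom. Both eIF3 genes called by edgeR encode the same loosely bound subunit, eIF3j. Eif3j1, on chr2:122028546-122056598, stood at 23.4, 24.1 and 23.2 CPM in sham and at 39.6, 56.0 and 43 CPM in IR24h. Its sham libraries were nearly equal and its IR24h libraries all higher, with means of 23.6 ± 0.445 and 46.2 ± 8.63 CPM (SD, n = 3 per group) and a log2 fold change of 0.97 ± 0.24 (edgeR, adjusted p = 0.0349). Of its exon bases, 19.0% lie opposite Spg11, which had a log2 fold change of -0.41 (edgeR, adjusted p = 0.449). Of the stretches of 50 bases in its exons, 50.9% also occur in other annotated genes, most often in Eif3j2. Without IR24h library 1 or 2 Eif3j1 stayed called, and without any 1 of the other libraries its adjusted p lay between 0.0531 and 0.163 (edgeR, log2 fold changes 0.95 to 1.02).

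Eif3j2 is a near-identical copy of Eif3j1, and 91.8% of the stretches of 50 bases in its exons also occur in other genes, most often in Eif3j1. It had 0 counts in each sham library and 39, 293 and 69 counts in IR24h libraries 1 to 3, which came to 5.54, 14.98 and 6.03 CPM. Its level in IR24h was at least 199.7-fold higher than 3 counts over the whole sham group would allow (edgeR, adjusted p = 0.00472). The same pattern, 0 in every sham library and at least 100 counts over the IR24h libraries, occurred in 26 genes of the table. Eif3j2 did have a sham value, unlike the 83 genes listed without one. Since the groups were not counted on the same gene models, a difference in processing and an absent transcript cannot be told apart for Eif3j2. Reads shared with Eif3j1 make the rise of either gene uncertain.

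The other 12 eIF3 subunit genes were split. Eif3b, which encodes a core scaffold subunit, stood at 119, 125 and 136 CPM in sham and 186, 193 and 222 CPM in IR24h, all higher (log2 fold change 0.66, edgeR, adjusted p = 0.0876). Eif3d, whose product can itself bind the cap of some mRNAs, stood at 62.7, 63.2 and 74.5 CPM in sham and 121, 95.6 and 125 CPM in IR24h, all higher (log2 fold change 0.77, edgeR, adjusted p = 0.0663). Its implied gene length was 6781 bases in sham and 1910 bases in IR24h, and 43.3% of its exon bases lie opposite Gm17638. On the lower side were Eif3l, Eif3m and Eif3i, each with all IR24h libraries below all sham libraries. Eif3l stood at 147, 156 and 173 CPM in sham and 54.7, 120 and 72.4 CPM in IR24h (log2 fold change -0.95, edgeR, adjusted p = 0.0890). Eif3m gave -0.88 (edgeR, adjusted p = 0.0554) and Eif3i gave -0.80 (edgeR, adjusted p = 0.0637).

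Eif3a encodes the largest subunit, around which the complex assembles. It stood at 160, 143 and 141 CPM in sham and at 111, 346 and 122 CPM in IR24h, with IR24h library 2 alone above the sham range (log2 fold change 0.38, edgeR, adjusted p = 0.588). Eif3c, another core subunit, stood at 176, 176 and 179 CPM in sham and 153, 207 and 237 CPM in IR24h (edgeR, adjusted p = 0.675). Eif3e, a subunit at the edge of the complex, stood at 71.2, 68.1 and 90.02 CPM in sham and 58.2, 77.7 and 79.1 CPM in IR24h, overlapping groups (log2 fold change -0.09, edgeR, adjusted p = 0.821). Eif3f, Eif3g, Eif3h and Eif3k had log2 fold changes of -0.63, 0.55, 0.42 and 0.17, and none passed. Eif3f had sham values of 97.8 to 125 CPM and IR24h values of 50.6, 60.7 and 104 CPM, so that IR24h library 3 reached the sham range.

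None of the genes for eIF2, for its exchange factor eIF2B or for the eIF2 alpha kinases passed the test. Median log2 fold changes were 0.21 over the 9 genes of eIF2 and eIF2B and -0.08 over the 4 kinases. At an unadjusted p under 0.05 edgeR gave 0 higher and 1 lower (Eif2s3x) among the former, as did DESeq2 at its adjusted p, and limma-voom gave 0. Among the kinases all 3 counts were 0. The shares of all genes, higher and lower, were 18.7% and 15.5% at an unadjusted p under 0.05 by edgeR. They were 15.2% and 12.5% by DESeq2 and 7.39% and 8.8% by limma-voom. Eif2s1, which encodes eIF2 alpha, the subunit that the kinases phosphorylate, stood at 36.4, 34.1 and 37.6 CPM in sham and 31.0, 57.7 and 36.4 CPM in IR24h (edgeR, adjusted p = 0.642). Eif2s2, the beta subunit, stood at 39.5, 40.1 and 45.7 CPM in sham and 46.2, 48.2 and 33.3 CPM in IR24h (edgeR, adjusted p = 0.950). For both, the IR24h libraries lay on either side of the sham values.

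The gamma subunit, which binds GTP and the initiator tRNA, is encoded on both sex chromosomes. Eif2s3x, the X-linked copy, stood at 50.6, 46.8 and 46.5 CPM in sham and 19.0, 35.6 and 16.6 CPM in IR24h, all lower (log2 fold change -1.01 ± 0.33, edgeR, adjusted p = 0.0779). Eif2s3y, the Y-linked copy, stood at 43.7, 36.6 and 42.4 CPM in sham and 75.9, 61.9 and 46.3 CPM in IR24h, all higher (log2 fold change 0.58 ± 0.27, edgeR, adjusted p = 0.166). Neither passed the test. All 6 libraries held Y-linked reads. The counts of Eif2s3y over Eif2s3x gave 0.865, 0.782 and 0.912 in sham and 3.99, 1.74 and 2.79 in IR24h, a log2 difference of 1.66 ± 0.35 (SE). Of the stretches of 50 bases in the exons of Eif2s3x, 34.6% also occur in Gm2223. None of those of Eif2s3y occur in another gene, so part of the Eif2s3x count, and with it the ratio, is uncertain. Without IR24h library 2 Eif2s3x was called at -1.44 (edgeR, adjusted p = 0.00144).

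**Figure D3:**
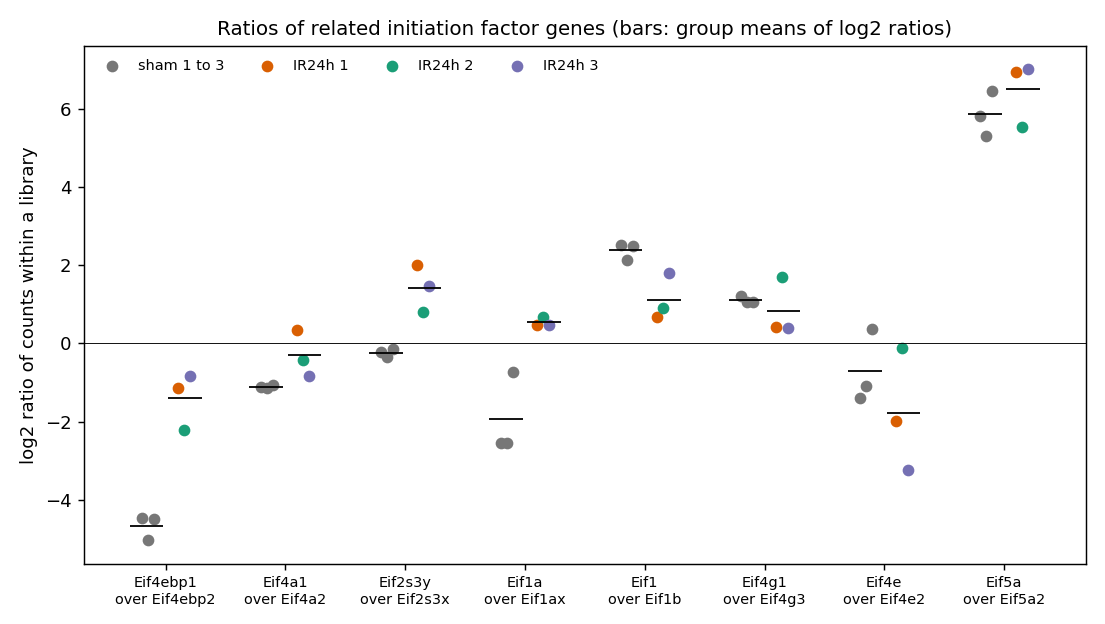
Log2 ratio of counts within each library (y axis) for 8 pairs of related initiation factors, with 1 point per library and bars for the group means of log2 ratios. On these counts the difference of Eif4ebp1 over Eif4ebp2 was the largest of the 8, at 3.26 on the log2 scale (by FPKM that of Eif1a over Eif1ax was larger, at 3.70), and the ratios of Eif4g1 to Eif4g3, Eif4e to Eif4e2 and Eif5a to Eif5a2 overlapped between the groups.

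In all, 8 paralog pairs were compared, and they were chosen with the values of their genes known. For each of the pairs Eif4ebp1 with Eif4ebp2, Eif4a1 with Eif4a2, Eif2s3y with Eif2s3x, Eif1a with Eif1ax and Eif1 with Eif1b, the groups did not overlap and an exact permutation test, 2-sided, gave p = 0.1, the smallest that 3 libraries against 3 allow (0.16 after Benjamini-Hochberg adjustment over the 8 pairs). Log2 differences were -0.28 for Eif4g1 over Eif4g3 and -1.07 for Eif4e over Eif4e2 (exact permutation p = 0.4 for each). For Eif5a over Eif5a2 the log2 difference was 0.64 (exact permutation p = 0.3).

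The kinases answer to heme loss (Eif2ak1), double-stranded RNA (Eif2ak2), stress of the endoplasmic reticulum (Eif2ak3) and lack of amino acids (Eif2ak4). Eif2ak1 stood at 81.0, 80.9 and 81.3 CPM in sham and 58.5, 61.5 and 78.1 CPM in IR24h, all lower, with a log2 fold change of -0.30 ± 0.23 (edgeR, adjusted p = 0.403). Eif2ak3 stood at 27.2, 31.9 and 29.3 CPM in sham and 14.3, 36.2 and 17.3 CPM in IR24h, with IR24h library 2 above the sham range and the others below it (edgeR, adjusted p = 0.517). Eif2ak2 stood at 46.9, 17.9 and 12.4 CPM in sham and 32.2, 33.1 and 20.01 CPM in IR24h (edgeR, adjusted p = 0.862). Sham library 1 was the highest of the 6 in that gene. Eif2ak4 stood at 13.2, 14.4 and 11.4 CPM in sham and 18.9, 18.3 and 10.4 CPM in IR24h (edgeR, adjusted p = 0.552). Of the eIF2B subunits, Eif2b3 and Eif2b5 had all IR24h libraries above all sham libraries, with log2 fold changes of 0.67 (edgeR, adjusted p = 0.153) and 0.43 (edgeR, adjusted p = 0.219). Eif2b5, the catalytic subunit of the exchange factor, stood at 52.0, 49.95 and 58.8 CPM in sham and 71.9, 65.9 and 78.6 CPM in IR24h. Eif2b1, Eif2b2 and Eif2b4 gave 0.48, -0.19 and -0.14 without passing.

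The last 3 genes act beside initiation proper, and none was called (0 at an unadjusted p under 0.05 by edgeR, and 0 by DESeq2 and limma-voom). Eif5a, whose hypusine-bearing product helps ribosomes through stalling sequences, was the most abundant initiation factor transcript per length in sham, at 68.8 ± 8.24 FPKM (SD, n = 3). Eif4b at 66 ± 2.44 FPKM came next and differed from it by less than the spread of Eif5a, followed by Eif3h at 58.2 ± 8 FPKM. This order rests on the gene lengths used for sham. The implied length was 5321 bases in sham and 3853 bases in IR24h for Eif4b, and 4087 and 1893 bases for Eif3l (42.8 FPKM in sham). With the shorter lengths both would stand higher, so the order is uncertain. Among the least abundant with sham counts were Eif2ak4 at 1.66 ± 0.243 FPKM, Eif2b3 at 1.46 ± 0.204 FPKM and Eif5a2 at 1.12 ± 0.36 FPKM. In CPM, Eif5a stood at 252, 270 and 338 in sham and 415, 356 and 583 in IR24h, all higher (log2 fold change 0.66 ± 0.29, edgeR, adjusted p = 0.161). Eif5a2, its rare paralog, stood between 3.88 and 6.78 CPM in sham and between 3.41 and 7.62 CPM in IR24h (edgeR, adjusted p = 0.941). Eif6, which keeps the ribosomal subunits apart, stood at 63.8, 54.0 and 73.7 CPM in sham and 56.5, 106 and 81.1 CPM in IR24h (edgeR, adjusted p = 0.446).

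**Figure D4:**
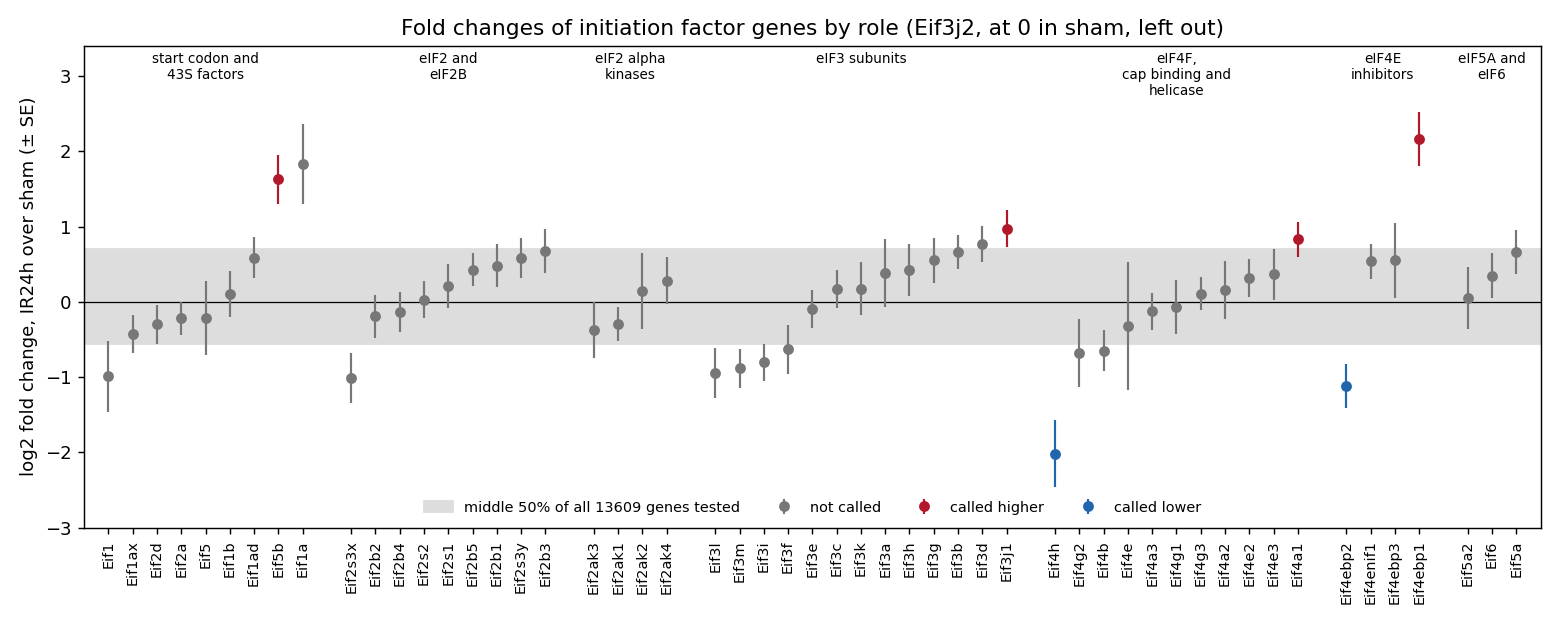
Log2 fold change of IR24h over sham (y axis, with SE) for the initiation factors tested other than Eif3j2, grouped by role, with red for called higher, blue for called lower and grey for not called. Values lie on both sides of 0, and the grey band holds the middle 50% of the 13609 genes tested, from -0.57 to 0.70.

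Other translation genes, chosen by their known roles with earlier results of these data known, were read as a second group around the initiation factors: partners of initiation, the mTOR axis upstream of eIF4E, elongation and termination factors and mitochondrial factors. Of 58 identifiers 56 were tested, 4 were higher and 4 were lower (7.14% each, against 8.65% and 7.62% of all genes), with a median log2 fold change of -0.06. The mTOR axis, with 1 gene higher and 1 lower among 14 tested, holds the inputs to the 4E-binding proteins. Ddit4, a stress-induced inhibitor of mTOR complex 1, rose by 1.34 ± 0.32 on the log2 scale (edgeR, adjusted p = 0.0307), and Gatsl3 (CASTOR1), an arginine sensor that restrains the same complex, gave -2.22 ± 0.33 (edgeR, adjusted p = 0.00633). Mtor itself gave -0.96 (edgeR, adjusted p = 0.0849), its means being 263.8 ± 3.88 CPM for sham and 135.5 ± 54.6 CPM for IR24h (SD, n = 3 per group).

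Among the partners of initiation, 25 were tested, 3 were higher and 1 was lower (with 8.65% and 7.62% of all genes). Denr, part of a ribosome recycling and reinitiation factor, rose by 1.27 ± 0.26 on the log2 scale (edgeR, adjusted p = 0.0189). Abce1, the recycling ATPase that splits ribosomal subunits, rose by 1.02 ± 0.24 (edgeR, adjusted p = 0.0298), and Bzw2, a mimic of eIF5, rose by 0.93 ± 0.23 (edgeR, adjusted p = 0.0315). Paip2b, an inhibitor of the poly(A)-binding protein, fell by 1.13 (edgeR, adjusted p = 0.0452). Without sham library 1, 2 or 3, none of these 4 was called (edgeR, adjusted p between 0.0875 and 0.171, log2 fold changes 0.89 to 1.33 for the 3 that rose and -1.2 to -1.07 for Paip2b). Without IR24h library 1 Bzw2 gave 0.85 (edgeR, adjusted p = 0.0558), and Paip2b gave -0.995 and -1.03 without IR24h library 1 or 3 (edgeR, adjusted p = 0.0932 and 0.102). Ppp1r15a, the stress-induced subunit of the phosphatase that removes the phosphate from eIF2 alpha, averaged 8.35 CPM in sham against 27.1 CPM in IR24h and missed the threshold (log2 fold change 1.69, edgeR, adjusted p = 0.0530). Pabpc1, the main poly(A)-binding protein, gave 0.85 (edgeR, adjusted p = 0.0745). Mknk1 and Mknk2, the kinases of eIF4E, gave -0.50 (edgeR, adjusted p = 0.196) and -0.18 (edgeR, adjusted p = 0.689).

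Elongation and termination factors had 11 tested, 0 higher and 1 lower (2 and 2 at an unadjusted p under 0.05 by edgeR and by DESeq2, 0 and 1 by limma-voom). The shares of all genes, higher and lower, were 8.65% and 7.62% by edgeR and 18.7% and 15.5% at its unadjusted p. They were 15.2% and 12.5% by DESeq2 and 7.39% and 8.8% by limma-voom. The lower gene was Eefsec, the elongation factor for selenocysteine, with a log2 fold change of -1.73 ± 0.32 (edgeR, adjusted p = 0.0142). Eef1a1 gave -0.41 (edgeR, adjusted p = 0.406), and Eef2 gave -0.83 (edgeR, adjusted p = 0.0968). Of 6 mitochondrial factors 0 were higher and 1 was lower (1 and 3 at an unadjusted p under 0.05 by edgeR and by DESeq2, 0 and 1 by limma-voom). That gene was Tsfm, the exchange factor of mitochondrial elongation, with a log2 fold change of -1.29 ± 0.22 (edgeR, adjusted p = 0.0114). Without any 1 of the sham libraries Eefsec (log2 fold changes -1.81 to -1.62), Tsfm (-1.33 to -1.25) and Ddit4 (1.19 to 1.44) were not called (edgeR, adjusted p between 0.0609 and 0.146), nor was Ddit4 without IR24h library 3 (1.08, edgeR, adjusted p = 0.0698). Gatsl3 stayed called without any 1 library.

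Among the 7 called initiation factors, the direction held under each alternative analysis that gave a value. With library size as the sole scaling, which shifted the median of all genes to -0.39 and that of the initiation factors to -0.29, Eif3j2 was the sole call left (1 of 54 higher and 0 lower, with 2.92% and 4.49% of all genes). The other 6 then had log2 fold changes, with SE, of 1.68 ± 0.47 for Eif4ebp1, 1.05 ± 0.40 for Eif5b, 0.58 ± 0.47 for Eif3j1, 0.40 ± 0.45 for Eif4a1, -1.47 ± 0.54 for Eif4ebp2 and -2.30 ± 0.67 for Eif4h (edgeR, adjusted p between 0.0632 and 0.611). The implied gene length differed between the groups for 9 of 53 initiation factors, and for 1681 of 12806 genes (13.1%), and, set against the IR24h libraries, the library totals implied by the FPKM values exceeded the summed counts by 7.91 to 9.74% in the sham libraries. The values of the groups were thus made differently, and for every gene, called ones included, processing and injury cannot be told apart. The 9 of differing length were Eif1a, Eif1ad, Eif2b5, Eif3a, Eif3d, Eif3l, Eif4a2, Eif4b and Eif4g1, none of which edgeR called over the 6 libraries. DESeq2 called Eif1a, Eif3d and Eif3l of these, and limma-voom called Eif1a.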

How the data were processed

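Per the file headers, the authors deposited raw read counts per gene for the 6 libraries and FPKM values, counts per gene length and library total. Per the submitters' processing notes they used CASAVA 1.8 and TopHat2 2.0.6, with mm10 and GRCh38 both named as builds. The identifiers are mouse identifiers. The read counter, annotation and strand setting were not given in the sources used here.

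Counts of the 22040 genes listed were used as deposited, less 83 genes without sham values. Gene lengths implied by count and FPKM were compared between groups at a tolerance of 0.01 on the log2 scale, and FPKM served otherwise for levels per length in sham. Coordinates and shared stretches of 50 bases came from GENCODE M21 (GRCm38), promoters from RefSeq (GRCm38.p6).

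IR24h was compared with sham by edgeR 4.0.16 (R 4.3.3): expression filter, TMM scaling, quasi-likelihood test, 2-sided, Benjamini-Hochberg adjustment over 13609 genes, called at an adjusted p under 0.05. Scaling factors were 1.16 to 1.22 in sham and 0.547, 1.22 and 0.861 in IR24h, and the common biological coefficient of variation was 0.394. Standard errors were derived from the F statistic. Alternatives were other scalings, no filter, a replicate block, DESeq2 1.42.0, limma 3.58.1 (voom), each library left out, IR24h library 2 alone, and genes of equal implied length. The test was checked on simulated data, where it made no false call and recovered few of the changed genes. With so few calls, the absence of false ones says little about their rate. Genes that were not called may still have changed. Summaries used Python 3.11.15, pandas 2.3.3 and NumPy 2.4.6. The pair ratios were set after the values were seen.

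Every initiation factor could be named, with full values for those called and for a set of core factors. Of the other translation genes, the called ones and a set of core genes could be named. The members, lists and tests were chosen with earlier results of these data known.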

Additional observations from a re-analysis of the deposited data

How the results depend on the processing

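Over all genes edgeR called 1177 higher and 1037 lower, and these counts as well as those of the initiation factors (5 and 2) and of the other translation genes (4 and 4) changed with several choices. With library size as the sole scaling the counts, higher and lower, were 398 and 611 for all genes, 1 and 0 for the initiation factors and 0 and 2 for the other translation genes. With DESeq2 they were 2073 and 1695, 8 and 6, and 9 and 9. With IR24h library 2 as the sole injured library, whose spread is assumed to be that of the sham libraries, they were 2690 and 2749, 14 and 6, and 11 and 7, and Eif4g1, not called at -0.07, stood at 0.59. Without the count filter 3 initiation factors were higher (5.56%, with 6.56% of all genes). Leaving out 1 library at a time gave 246 to 3297 higher and 196 to 3382 lower genes, 1 to 14 and 0 to 12 initiation factors, and 0 to 13 and 1 to 19 other translation genes. The lowest counts came without a sham library (0 initiation factors were lower also without IR24h library 1), and the highest without IR24h library 2, where 23.9% of all genes were higher and 24.5% lower. With the replicate number as a block 4 initiation factors were higher and 1 was lower (814 and 843 of all genes). The correlation of deviations of same-numbered libraries was -0.109, 0.120 and 0.233, and not every library correlated best with its own number. With deviations from means of 3 libraries, this cannot decide whether the numbers pair the libraries. The log2 difference between groups in the ratio of Eif1a to Eif1ax was 3.70 by FPKM in place of 2.48, since implied lengths differ. Upper-quartile scaling, TMM without mitochondrial genes, limma-voom and genes of equal implied length kept all 6 counts within 1.5 times. Of 1083 values of single genes, 70 lost a call and 60 gained one. Limits are the 3 libraries per group, processing that differs between the groups, and the 0 counts of Eif3j2 in sham. The cause of these changes was not tested.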

Other observations

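Sham library 3 stood at least 2.5-fold over the mean of the other sham libraries in 24 of 8797 genes with a sham mean of at least 10 CPM (0.273%), and Eif1a (3.30-fold) and Eif4e (3.17-fold) were among them, 2 of 49 initiation factors at that level. With a 2-fold limit, added after the data were seen, the count was 48.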
